A study of Mus musculus with 18 samples.

Results

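RNA levels were compared between splenic CD4 T cells cultured with many and with few activating beads, in the absence of any antibody to Ox40. The beads carry antibodies to CD3, the signalling part of the T cell receptor, and to CD28, its main costimulatory receptor. The comparison takes the 3 control Ig libraries at 1 bead per cell (high beads) against the 3 control Ig libraries at 0.1 bead per cell (low beads), chosen by their titles, which makes 6 of the 18 libraries of the series. It asks what a larger bead dose adds to weak stimulation. All cells came from female NZB/W F1 mice, the lupus-prone cross of the NZB and NZW strains, at 21 to 27 weeks of age and with 30 to 100 mg/dL of protein in the urine. CD4 T cells were taken from the spleen with an isolation kit for all CD4 T cells, with no sort into naive, memory or regulatory cells. Each well held 250000 cells, IL-2 at 10 U/mL and an isotype control IgG1 at 25 µg/mL, and RNA was collected after 48 hours. IL-2 was thus supplied to every group, and 1 time point was taken. The 3 control Ig libraries without beads serve below as the start of the dose series, and the other 9 libraries received anti-Ox40 in place of the control IgG1 at the same bead doses. Whether the 3 libraries of a group came from separate mice, separate cultures or 1 pool is not stated, so the p-values reflect no more than the spread among these libraries, which may be technical.

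As background, binding of the T cell receptor together with CD28 starts calcium, MAP kinase and NF-kB signalling, which act on the NFAT, AP-1, NF-kB and IRF4 transcription factors. Stronger receptor signalling is known to raise IRF4 and MYC, to move T cells from oxidative metabolism towards aerobic glycolysis, and to lower genes that keep naive cells quiescent and recirculating. Cytokine genes of the helper subsets differ in how much signal they need, and IL-2 acts beside the receptor through STAT5.

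Values are nRPKM, the authors' reads per kilobase of gene length, scaled to sequencing depth, with a further normalization between libraries. Changes are differences of log2(nRPKM + 1), high minus low, a scale that understates the change of genes with low values. Of 36528 entries, 13075 reached at least 1 nRPKM in at least 3 of the 18 libraries and were tested with limma. Genes with a Benjamini-Hochberg adjusted p under 0.05 over all tested genes were called, and a second, stricter call asked for a change of over 2-fold (limma treat). Where a pair of means is given, each is the mean ± SD of 3 libraries, low beads first.

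The step from low to high beads moved most measured genes by a little and a small share by a lot. In all, 5231 genes were called higher (40.0% of those tested) and 4252 lower (32.5%). The median change over all tested genes was 0.04, and the middle 80% of genes lay between -0.64 and 0.68. A change of over 2-fold was called for 202 higher genes (1.54%) and 162 lower genes (1.24%). In each of these the 3 high-bead and the 3 low-bead libraries did not overlap, as was true of 73.1% of all tested genes. Counts within a gene group are read below against these shares. With every library scaled to the same sum of nRPKM, the median moved by 0.16 on the log2 scale to -0.12, and 3539 genes were called higher and 5915 lower. Sums were 292703 to 313075 nRPKM in the low-bead libraries and 342738 to 346240 nRPKM in the high-bead libraries. With the library highest in B cell markers left out of every group at once, which leaves fewer libraries to the test, 91 genes were called over 2-fold lower.

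Depth was similar across the 6 libraries. An nRPKM of 1 stood for 33.6 to 46.0 reads in a gene of 1 kb. Correlation of log2 levels was 0.989 to 0.995 within the groups and 0.931 to 0.955 between them. Replicate numbers are only names in accession order. Low-bead replicate 2 had less of the nuclear RNA Malat1 than the other low-bead libraries, and replicate 3 had the most B cell RNA in all 6 groups of the series (8.08 to 57.2 nRPKM summed over markers, against 5.2 to 11.8 nRPKM in the other 12 libraries). Whether libraries at the same place in accession order share an origin is not stated and was not tested, and no fit paired them. Their values are given beside the results they touch.

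**Figure D1:**
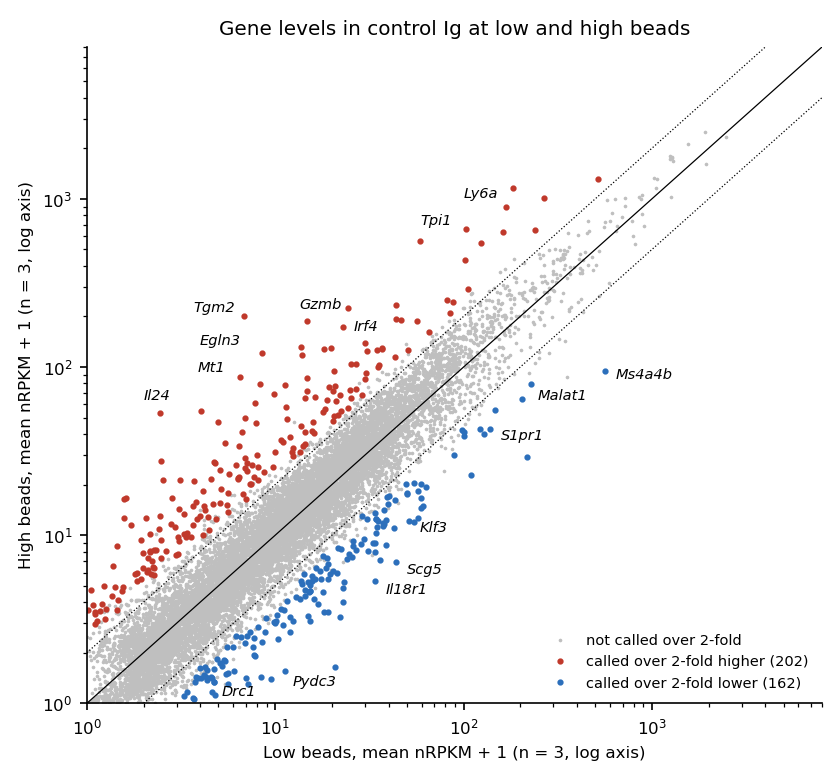
Mean level of each of the 13075 tested genes (nRPKM + 1, log axes, n = 3 libraries a group) at low beads (x) and high beads (y) in control Ig. Red and blue points are the 202 and 162 genes called over 2-fold higher and lower, the solid line marks equal levels and the dotted lines mark 2-fold, and most genes lie between those lines.

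The largest increase was that of Tgm2, which encodes transglutaminase 2, an enzyme that crosslinks proteins. It stood at 5.45, 7.98 and 3.99 nRPKM at low beads and at 229, 207 and 162 nRPKM at high beads. Every high-bead library was far above every low-bead library, and the log2 change was 4.91 ± 0.17 (SE, adjusted p = 4.3e-12). Without beads Tgm2 stood at 4.43, 4.36 and 5.58 nRPKM, a range that overlaps that of low beads, and the change from no to low beads did not pass the test (0.20, adjusted p = 0.34). Il24, a cytokine of the IL-10 family made by Th2 cells, came next. It stood at 1.13, 2.495 and 0.736 nRPKM at low beads and at 45.9, 55.1 and 56.7 nRPKM at high beads, a log2 change of 4.51 ± 0.22 with low-bead replicate 2 the highest of its group. Gzmb, the cytotoxic protease granzyme B, stood at 15.2, 14.1 and 12.2 nRPKM at low beads and at 200.4, 179 and 179 nRPKM at high beads (3.66 ± 0.12). In all 3 genes the spread within groups was small beside the change.

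The 15 largest increases, which include these 3 and pass over predicted genes and small RNAs, belonged to several kinds of gene. Mt1 and Mt2 bind metals, Egln3 senses oxygen, Slc16a3 exports lactate, Scd2 desaturates fatty acids, and Ccr8, Lag3 and Il21 are receptors or cytokines of activated T cells. Cyp11a1, the enzyme that cuts the side chain of cholesterol at the start of steroid synthesis, rose from 7.32 ± 2.09 to 78.3 ± 14.3 nRPKM. Kremen2, a receptor for Dickkopf proteins of the Wnt pathway, rose from 0.609 ± 0.191 to 15.7 ± 2.17 nRPKM. Tg, the gene for the thyroid protein thyroglobulin, was listed from 0.575 ± 0.1397 to 15.4 ± 1.35 nRPKM and rose. Its span overlaps Sla, a T cell adaptor gene that went from 39.01 ± 1.097 to 48.5 ± 3.52 nRPKM. The library kit does not mark strand, so reads from stretches where exons of both genes overlap cannot be told apart. Overlap was read from whole gene spans, and whether exons overlap was not examined.

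Metallothioneins are small proteins that bind zinc and copper, and their genes are classic targets of the zinc-sensing factor MTF1. The promoters of Mt1 and Mt2 (RefSeq, GRCm38.p6, plus strand, 250 bases before to 50 after 1 annotated transcript start) are shown because these neighbouring genes moved together and carry several copies of the core of the metal response element, in capitals.
Mt1, chr8:94178839-94179138: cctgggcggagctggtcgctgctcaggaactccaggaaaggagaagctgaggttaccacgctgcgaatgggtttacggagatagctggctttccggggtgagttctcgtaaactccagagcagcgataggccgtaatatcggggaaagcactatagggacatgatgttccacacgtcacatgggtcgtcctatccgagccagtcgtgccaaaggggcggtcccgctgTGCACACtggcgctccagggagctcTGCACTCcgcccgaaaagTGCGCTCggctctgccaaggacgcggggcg
Mt2, chr8:94172368-94172667: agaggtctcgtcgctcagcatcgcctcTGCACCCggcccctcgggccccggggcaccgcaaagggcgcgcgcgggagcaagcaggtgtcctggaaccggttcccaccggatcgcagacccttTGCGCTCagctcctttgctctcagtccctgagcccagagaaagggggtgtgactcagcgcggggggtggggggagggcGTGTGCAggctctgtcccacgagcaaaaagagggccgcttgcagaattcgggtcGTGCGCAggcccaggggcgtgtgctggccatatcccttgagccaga
The core was searched as TGCACNC or TGCGCNC on both strands. It matched 3 times in Mt1 and 4 times in Mt2, which are shown partly for these copies. At least 1 match was held by 36.2% of the 8730 promoters of tested genes in the table and by 25.6% of all 27025. The share of promoters with several copies was not computed. A match is a run of letters, and binding was not measured. In expression, Mt1 (chromosome 8, 94178883 to 94180327) stood at 5.07, 6.12 and 5.22 nRPKM at low beads and at 95.2, 76.8 and 88.5 nRPKM at high beads, a log2 change of 3.76 ± 0.15 (adjusted p = 2e-11). Mt2 (chromosome 8, 94172618 to 94173567) stood at 2.74, 3.801 and 2.59 nRPKM at low beads and at 60.3, 49.1 and 51.7 nRPKM at high beads (3.76 ± 0.18, adjusted p = 1.1e-10). The groups did not overlap in either gene, and the changes were nearly equal. Transcripts of Mtf1 itself did not pass the test (0.013 ± 0.041, adjusted p = 0.79). They were called lower with libraries scaled to equal sums (-0.15, adjusted p = 0.00452). Among 19 tested genes for metallothioneins and zinc transporters, 7 were called higher and 4 lower, and only Mt1 and Mt2 by over 2-fold. The median of this group was 0.07, and it was -0.11 with libraries scaled to equal sums. The exporter gene Slc30a1, another known MTF1 target, changed by -0.60 ± 0.068, opposite to the metallothioneins.

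Genes of glycolysis rose together. Of 22 tested members from glucose uptake to lactate export, 21 were called higher and none lower, 14 of them by over 2-fold, with a median log2 change of 1.81. Slc16a3, the lactate exporter MCT4, stood at 11.4, 13.5 and 13.1 nRPKM at low beads and at 131, 128 and 131 nRPKM at high beads (3.27 ± 0.059, adjusted p = 5.3e-15). Values within each group differed little beside this change. At the entry to the pathway, the glucose transporter gene Slc2a1 rose from 28.8 ± 3.39 to 138 ± 1.21 nRPKM and the hexokinase gene Hk2 from 4.39 ± 0.372 to 34.2 ± 1.37 nRPKM. Tpi1, triosephosphate isomerase, rose from 102 ± 13.5 to 660.1 ± 6.04 nRPKM, and Pkm, pyruvate kinase, from 123 ± 15.3 to 544 ± 8.05 nRPKM. Many glycolytic genes have near-identical copies elsewhere in the genome, and how reads shared with copies were counted is not given in the sources used here. Gapdh, usually among the most abundant transcripts, was listed from 3.09 ± 0.439 to 8.47 ± 0.628 nRPKM, so its level is uncertain. The member not called was Pfkfb4, a kinase that sets fructose bisphosphate levels, which went from 1.64 ± 0.00404 to 1.704 ± 0.0982 nRPKM. Of 7 pentose phosphate genes, 6 were called higher and none by over 2-fold.

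Targets of hypoxia-inducible factor (HIF), several of which also act in glycolysis but were listed apart, rose as well. Among 22 tested members 19 were called higher and none lower, 13 of them by over 2-fold, with a median of 1.52. The members counted include Hif1a, the gene of the factor itself. Egln3, the prolyl hydroxylase that marks HIF for destruction and is itself induced by HIF, stood at 6.58, 8.99 and 6.95 nRPKM at low beads and at 121, 117 and 122 nRPKM at high beads, a change of 3.84 ± 0.11 (adjusted p = 3.5e-13). Fam162a, a mitochondrial protein, rose from 43.04 ± 2.93 to 232 ± 3.57 nRPKM, and Bnip3, a mitophagy receptor, from 2.14 ± 0.502 to 20.4 ± 0.792 nRPKM. Ak4, a mitochondrial adenylate kinase, was under 1 nRPKM in every low-bead library and rose from 0.5803 ± 0.166 to 11.7 ± 0.518 nRPKM. Ndrg1, a stress-responsive gene, rose from 6.803 ± 0.577 to 59.9 ± 9.29 nRPKM. Mgarp, a mitochondrial protein that was on no list, rose from 1.48 ± 0.0577 to 26.4 ± 0.925 nRPKM. The transcript of the factor itself, Hif1a, stood at 122, 104 and 102 nRPKM at low beads and at 303, 255 and 259.6 nRPKM at high beads (1.31 ± 0.10). Car9, a carbonic anhydrase often used as a mark of hypoxia, and Pdk1, which keeps pyruvate out of mitochondria, did not pass the test, with changes of -0.12 ± 0.091 and 0.16 ± 0.087 (adjusted p = 0.24 and 0.1). Oxygen in the wells is not stated, and its part in these changes was not tested.

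Promoters of Egln3 and Slc16a3 are printed because these were the largest increases among HIF targets and glycolysis genes. Capitals mark the hypoxia response core ACGTG, searched on both strands. The same letters lie within CACGTG, the E-box bound by MYC.
Egln3, chr12:54203825-54204124, minus strand: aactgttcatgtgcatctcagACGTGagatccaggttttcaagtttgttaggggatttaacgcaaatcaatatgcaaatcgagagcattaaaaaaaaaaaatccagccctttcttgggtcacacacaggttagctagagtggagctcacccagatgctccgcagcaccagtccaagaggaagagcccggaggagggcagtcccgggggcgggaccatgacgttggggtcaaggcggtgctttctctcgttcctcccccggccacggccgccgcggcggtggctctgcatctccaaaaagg
Slc16a3, chr11:120948817-120949116, plus strand: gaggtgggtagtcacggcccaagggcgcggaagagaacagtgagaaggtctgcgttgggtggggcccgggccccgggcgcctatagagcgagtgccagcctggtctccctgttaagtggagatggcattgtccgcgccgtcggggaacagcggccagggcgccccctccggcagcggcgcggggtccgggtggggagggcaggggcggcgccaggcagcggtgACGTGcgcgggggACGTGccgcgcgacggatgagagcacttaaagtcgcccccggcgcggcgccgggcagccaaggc
The window of Slc16a3, like that of Mt1, surrounds a start that lies inside the annotated span of the gene. In these windows of the same length and source as above, the core matched 1 time for Egln3 as printed and 2 times for Slc16a3. At least 1 match was present in 11 of 18 HIF target promoters in the RefSeq table (61.1%) and in 11 of 21 glycolysis promoters (52.4%), against 26.7% of the promoters of all tested genes. The metal response core was also present in more of the HIF target promoters (55.6%) than of all tested genes (36.2%). These shares describe letters, and base composition was not taken into account. The HIF genes were listed as targets of that factor, so a larger share there could arise whatever these data showed. Slc16a3 overlaps Csnk1d in the annotation, and Csnk1d went from 51.03 ± 1.75 to 55.3 ± 1.12 nRPKM.

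Genes of lipid synthesis rose more modestly and with few exceptions. All 23 tested genes of cholesterol synthesis and its control were called higher, with a median of 0.81, and 1 by over 2-fold. That gene was Cyp51, a demethylase of lanosterol, which rose from 15.2 ± 1.52 to 39.3 ± 2.81 nRPKM. In the fatty acid group 13 of 14 were called higher (median 0.64). The desaturase genes led this group, with Scd2 rising from 23.4 ± 3.36 to 223 ± 11.1 nRPKM, Scd1 from 1.34 ± 1.502 to 9.15 ± 1.32 nRPKM and Fads2 from 1.84 ± 0.175 to 15.6 ± 2.49 nRPKM. Fasn, fatty acid synthase, rose by 0.94 ± 0.056.

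Amino acid and nucleotide supply followed the same direction. The group of ATF4, amino acid uptake and one-carbon genes had 25 of 26 members called higher and none lower, 5 by over 2-fold, with a median of 0.97. Asns, asparagine synthetase and a standard ATF4 target, stood at 23.9, 25.7 and 22.4 nRPKM at low beads and at 82.7, 61.2 and 73.5 nRPKM at high beads (1.55 ± 0.09). Mthfd1l, a mitochondrial folate enzyme, rose from 21.1 ± 1.75 to 67.4 ± 1.71 nRPKM. Cth, which makes cysteine from cystathionine, rose from 0.717 ± 0.06503 to 10.6 ± 3.08 nRPKM. Atf4 itself rose by 1.07 ± 0.066. Of 25 nucleotide synthesis genes 23 were called higher and 1 lower (median 0.65), none by over 2-fold. Among MYC and polyamine genes 9 of 14 were called higher and 2 lower. Myc stood at 67.2, 80.8 and 70.8 nRPKM at low beads and at 115, 115 and 110.3 nRPKM at high beads (0.63 ± 0.071), without overlap, and the polyamine enzyme gene Odc1 rose by 1.02 ± 0.12.

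Genes of protein synthesis and turnover rose by smaller amounts. Ribosome biogenesis factors were called higher in 33 of 34 cases (median 0.56) and cytosolic ribosomal proteins in 63 of 77 (median 0.38). With libraries scaled to equal sums the ribosomal protein median was 0.19, with 44 called higher and 2 lower. Translation initiation factors and their regulators were called higher in 32 of 36 cases, led by Eif4ebp1, an inhibitor of cap-dependent translation and ATF4 target, which rose from 29.9 ± 4.43 to 123 ± 8.44 nRPKM. Eif4a2, a helicase of the same pathway, fell from 86.5 ± 4.88 to 56.3 ± 2.22 nRPKM. All 8 subunits of the CCT chaperonin, 38 of 40 proteasome subunits and 67 of 73 respiratory chain and ATP synthase subunits were called higher, none by over 2-fold. Their medians were 0.67, 0.62 and 0.57. Endoplasmic reticulum chaperones and their regulators had 16 of 22 called higher, while the cochaperone genes Dnajb9 and Dnajc3 and Ern1, the stress sensor IRE1, were called lower.

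**Figure D2:**
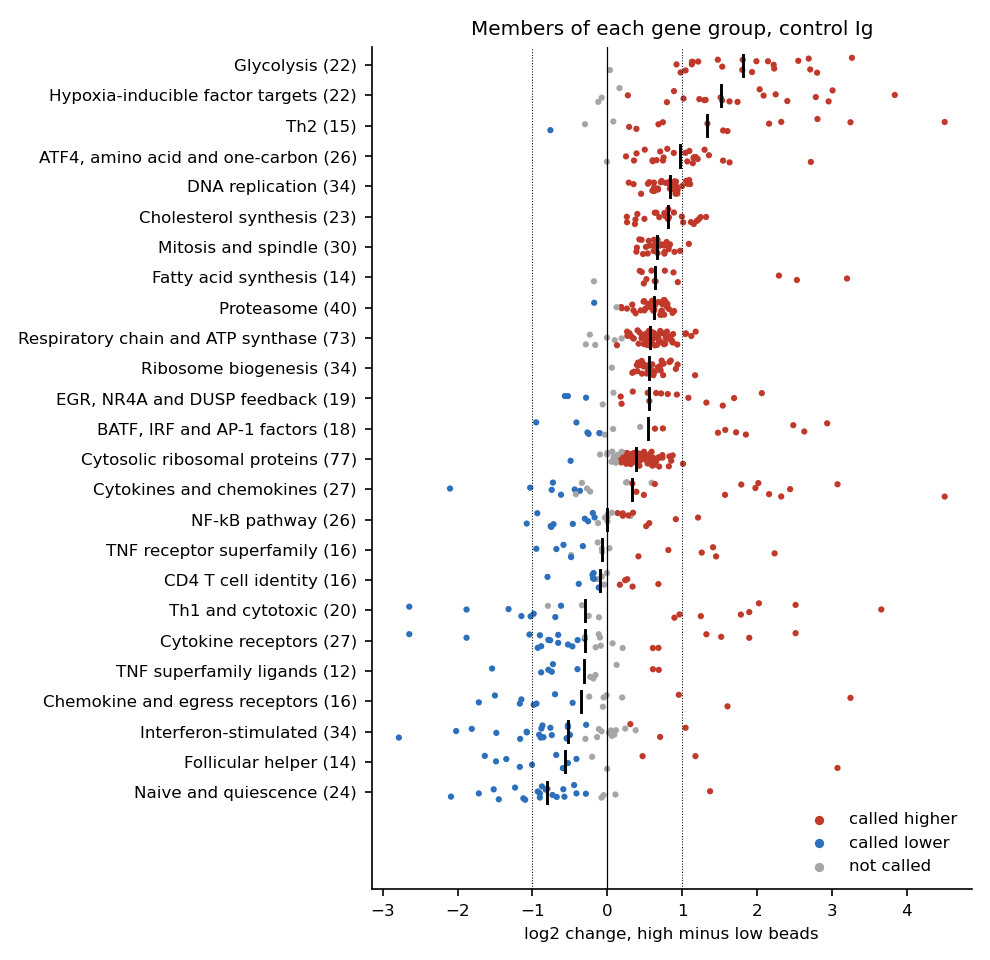
Change from low to high beads (x, log2 of nRPKM + 1, high minus low) of each tested member of 25 gene groups in control Ig. Points are genes coloured by call at adjusted p under 0.05, black bars are group medians, numbers in brackets are members tested, and dotted lines mark 2-fold. Glycolysis has 21 of 22 members called higher, while the naive and quiescence group has 20 of 24 called lower.

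Transcription factors downstream of the receptor moved in both directions. Irf4, whose level is known to follow the strength of receptor signalling, stood at 23.04, 24.5 and 17.98 nRPKM at low beads and at 196, 164 and 159 nRPKM at high beads (2.94 ± 0.12, adjusted p = 1.7e-11). The groups were far apart. Its partner Batf rose from 55.8 ± 6.01 to 186 ± 15.9 nRPKM and the related Batf3 from 1.27 ± 0.1397 to 7.21 ± 0.753 nRPKM. Fosl2, an AP-1 subunit, stood at 7.46, 6.99 and 8.13 nRPKM without beads, at 4.31, 3.65 and 3.46 nRPKM at low beads and at 29.5, 24.7 and 23.5 nRPKM at high beads. Its level was thus lower at low beads than at either end of the dose series. In the group of BATF, IRF and AP-1 factors 9 of 18 were called higher, 7 of them by over 2-fold, and 5 lower, of which Bach1, a leucine zipper repressor, changed most (-0.95 ± 0.046). Fos, an immediate early AP-1 gene, did not pass the test at 48 hours (-0.093 ± 0.1, adjusted p = 0.41).

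Feedback regulators of receptor signalling rose more often than they fell. In the group of EGR, NR4A and DUSP genes 14 of 19 were called higher and 3 lower (median 0.56). Dusp6, a phosphatase that switches off ERK, stood at 13.2, 14.5 and 10.7 nRPKM at low beads and at 36.6, 42.9 and 51.4 nRPKM at high beads (1.69 ± 0.14). Egr2, a zinc finger factor linked to T cell tolerance, rose from 1.49 ± 0.274 to 6.32 ± 1.45 nRPKM, and Nr4a1, a common reporter of receptor signalling, from 2.98 ± 0.2403 to 7.42 ± 0.473 nRPKM. Ier3, an early response gene, rose from 1.78 ± 0.255 to 10.7 ± 1.67 nRPKM.

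The receptor complex and the signalling layers next to it showed no common direction. Among 22 tested genes of the T cell receptor complex and its kinases, 7 were called higher and 11 lower (median -0.12). Txk, a tyrosine kinase close to the receptor, was the 1 member called over 2-fold and fell from 36.7 ± 1.92 to 10.6 ± 2.02 nRPKM. Cd3e did not pass the test (-0.12 ± 0.054, adjusted p = 0.056). Cd4 changed by -0.38 ± 0.053, and Cd28 rose by 0.34 ± 0.06, which did not pass with libraries scaled to equal sums. In the NFAT and calcineurin group 4 of 16 were called higher and 7 lower. The NF-kB group had a median of 0, with 9 of 26 called higher, 10 lower and none by over 2-fold, and its median was -0.19 with libraries scaled to equal sums. Rel, the subunit most linked to T cell activation, fell from 11.4 ± 0.709 to 4.88 ± 0.259 nRPKM. Bcl3, a partner of the p50 and p52 subunits, rose from 38.7 ± 5.32 to 90.4 ± 1.95 nRPKM, and the subunit genes Nfkb1 and Nfkb2 rose by 0.56 ± 0.048 and 0.52 ± 0.11.

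Cytokine genes were read by helper type. Of 15 tested Th2 genes 12 were called higher, 8 by over 2-fold, and 1 lower, with a median of 1.34. Il4 stood at 2.58, 3.57 and 3.203 nRPKM at low beads and at 17.1, 18.3 and 16.6 nRPKM at high beads (2.16 ± 0.13, adjusted p = 1e-09). Low-bead cultures were close to those without beads, which held 2.95, 2.39 and 2.22 nRPKM, while all 3 high-bead libraries were well above both. Il13 stood at 2.796, 6.36 and 3.17 nRPKM at low beads and at 22.6, 22.8 and 24.9 nRPKM at high beads (2.32 ± 0.23), with low-bead replicate 2 the highest of its group. Gata3, the lineage factor of Th2 cells, rose from 34.4 ± 5.06 to 102 ± 10.7 nRPKM, and Nfil3, a factor induced by IL-4, from 10.3 ± 1.84 to 77.5 ± 4.16 nRPKM. Ccr8 and Ccr4, chemokine receptors of Th2 and regulatory cells, rose from 3.99 ± 0.784 to 46.4 ± 6.74 nRPKM and from 17.4 ± 0.989 to 55.1 ± 3.57 nRPKM. Il5 was called higher but stayed under 1 nRPKM in all 6 libraries and was tested because anti-Ox40 libraries reached that level. It stood at 0.255, 0.514 and 0.402 nRPKM at low and 0.808, 0.922 and 0.717 nRPKM at high beads, and its adjusted p of 0.018 was 0.0763 without low-bead replicate 1 and 0.0594 without high-bead replicate 2.

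In the Th1 and cytotoxic group 8 of 20 were called higher and 8 lower (40.0% each, median -0.29). These shares were near those of all tested genes (40.0% and 32.5%). By over 2-fold, 6 were called higher (30.0%) and 2 lower, against 1.54% and 1.24% of all tested genes. Tbx21, the lineage factor T-bet, stood at 9.497, 10.1 and 9.54 nRPKM at low beads and at 35.7, 34.1 and 38.2 nRPKM at high beads (1.78 ± 0.07). Il12rb2, the signalling chain of the IL-12 receptor, rose from 3.75 ± 0.636 to 26.1 ± 2.801 nRPKM. Ifng, the main Th1 cytokine, was low in all 6 libraries. It stood at 3.17, 3.97 and 2.12 nRPKM at low beads and at 1.34, 2.42 and 1.23 nRPKM at high beads, with overlapping groups and a change of -0.62 ± 0.24 (adjusted p = 0.028). The adjusted p was 0.068, 0.119, 0.0886 and 0.104 without low-bead replicate 1 or 2 or high-bead replicate 1 or 3. Il18r1 and Il18rap, the chains of the IL-18 receptor, fell from 32.8 ± 7.39 to 4.32 ± 0.303 nRPKM and from 7.47 ± 1.05 to 1.31 ± 0.424 nRPKM. Prf1, perforin, fell from 5.31 ± 0.513 to 2.92 ± 0.689 nRPKM, opposite to Gzmb. Eomes, a factor of cytotoxic and memory cells, fell from 3.74 ± 0.389 to 0.898 ± 0.151 nRPKM. In the Th17 group 2 of 7 were called higher and 3 lower. Il17a did not reach the level needed for a test, with 0 nRPKM in the low-bead libraries and at most 0.05 nRPKM at high beads.

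Among 27 tested cytokines and chemokines of all types, 13 were called higher and 7 lower. Il21, which helps B cells and sustains activated T cells, stood at 2.21, 1.23 and 1.12 nRPKM at low beads and at 24.6, 21.5 and 14.8 nRPKM at high beads (3.08 ± 0.18). Il10, which dampens inflammation, stood at 3.35, 2.07 and 2.75 nRPKM at low beads and at 22.9, 12 and 24.8 nRPKM at high beads (2.44 ± 0.27). Lif, of the IL-6 family, rose from 5.36 ± 0.699 to 20.9 ± 0.525 nRPKM, and Mif, an inflammatory mediator that is also a HIF target, from 18.4 ± 2.34 to 75.01 ± 2.83 nRPKM. Il9 stood at 2.23, 5.41 and 1.86 nRPKM at low beads and at 15.6, 11.9 and 6.27 nRPKM at high beads (1.57 ± 0.41), a wide spread in both groups without overlap. Tnf fell from 17.4 ± 0.349 to 10.01 ± 0.147 nRPKM and Xcl1, a chemokine for dendritic cells, from 4.63 ± 1.02 to 0.309 ± 0.229 nRPKM. Il2 and Csf2 were under 1 nRPKM in all 6 libraries, were tested because other libraries reached that level, and did not pass the test (adjusted p = 0.31 and 0.24).

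Follicular helper genes leaned lower, and regulatory genes went both ways, as all tested genes did. In the follicular helper group 3 of 14 were called higher and 9 lower. Bcl6, its lineage repressor, stood at 9.898, 11.1 and 9.59 nRPKM at low beads and at 2.41, 2.45 and 2.94 nRPKM at high beads (-1.64 ± 0.084), and Cxcr5, the receptor for entry into B cell follicles, fell from 9.99 ± 1.84 to 3.898 ± 0.912 nRPKM. Icos, a costimulatory receptor of these cells, rose from 108 ± 8.09 to 244 ± 4.21 nRPKM, as did Il21. In the regulatory T cell group 8 of 19 were called higher (42.1%) and 9 lower (47.4%), against 40.0% and 32.5% of all tested genes. Foxp3 stood at 80.3, 54.2 and 67.3 nRPKM at low beads and at 42.7, 24.9 and 35.7 nRPKM at high beads (-0.96 ± 0.20), without overlap between groups, and its call ended with the nuclear RNA score in the model. Nt5e, the ectonucleotidase CD73, fell from 22.3 ± 5.45 to 4.24 ± 0.807 nRPKM, and Ikzf2, the factor Helios, from 21.98 ± 6.65 to 5.96 ± 1.303 nRPKM. Prdm1, a repressor of effector and regulatory cells known to oppose Bcl6, rose from 3.66 ± 0.559 to 11.02 ± 1.48 nRPKM. In bulk RNA of this kind fewer cells of a type and less RNA per cell cannot be told apart.

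**Figure D3:**
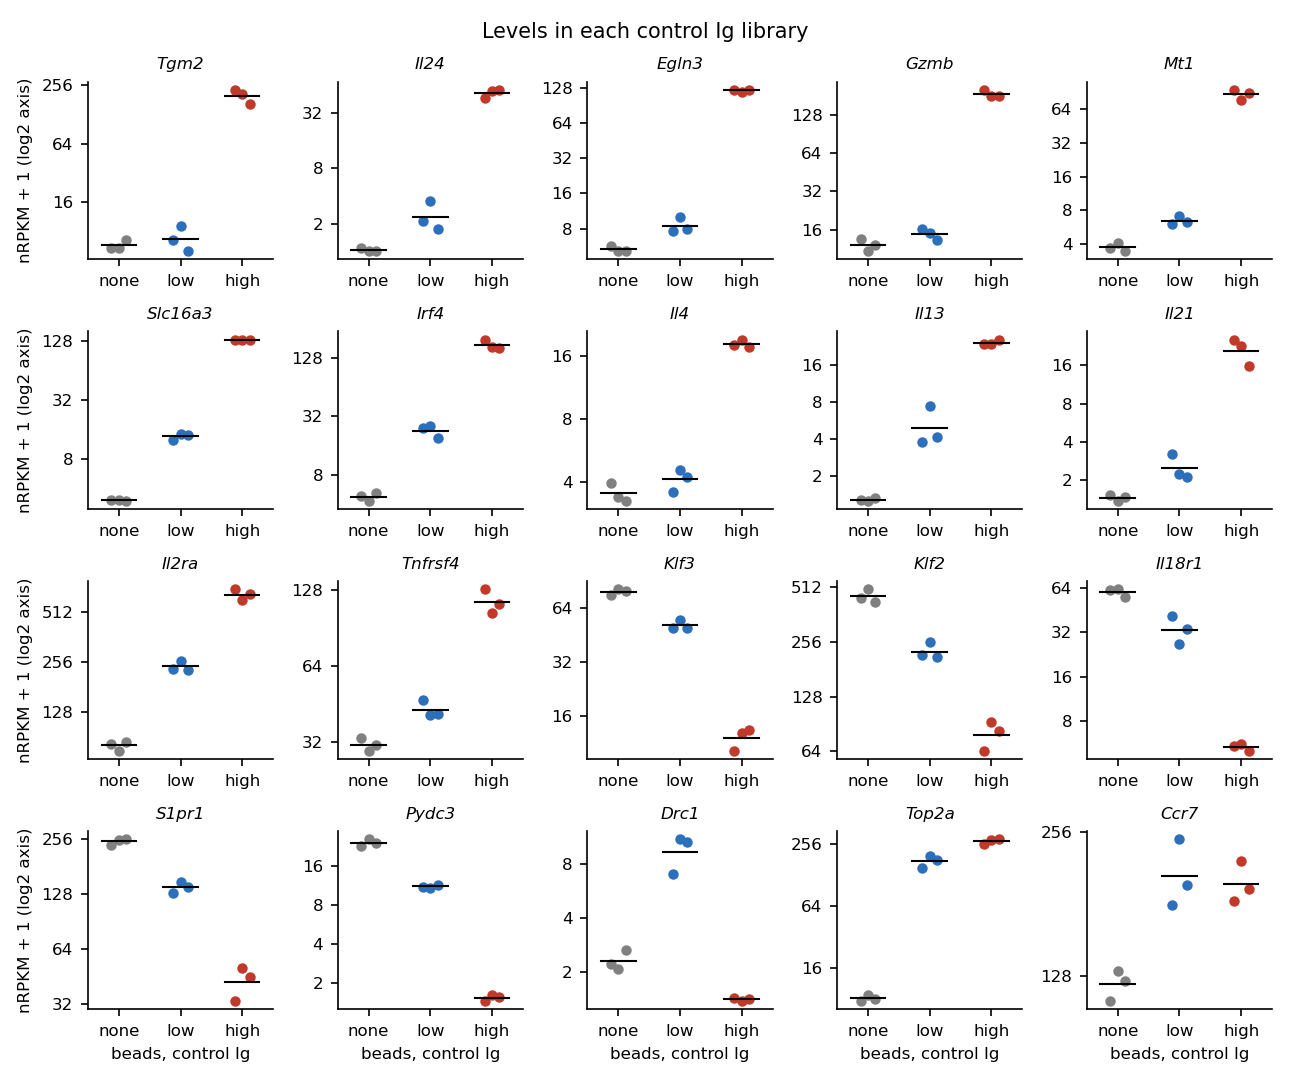
Level of 20 named genes (nRPKM + 1, log2 axis, a scale for each gene) in each control Ig library without beads, at low and at high beads. Points are libraries and bars are means on the log scale (n = 3), high-bead libraries stand clear of low-bead libraries in every panel except Ccr7, and Drc1 is highest at low beads.

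Surface receptors of activation and costimulation had 10 of 21 called higher (47.6%) and 6 lower (28.6%). Over all tested genes these shares were 40.0% and 32.5%. The median of this group was 0.06, and it was -0.13 with libraries scaled to equal sums. Ly6a, the Sca-1 antigen, rose from 166 ± 11.01 to 899 ± 75.6 nRPKM. Cd69, an early activation antigen, rose by 0.63 ± 0.087. Cd44, the antigen of memory and activated cells, stood at 25.2, 23.8 and 23.8 nRPKM at low beads and at 25.1, 23.3 and 26.7 nRPKM at high beads, with overlapping groups and no call (0.039 ± 0.066, adjusted p = 0.6). In the TNF receptor superfamily 6 of 16 were called higher and 5 lower. Tnfrsf4, which encodes Ox40, stood at 46.03, 40.03 and 40.3 nRPKM at low beads and at 127, 103 and 111 nRPKM at high beads (1.41 ± 0.075, adjusted p = 3e-10). These cultures received no anti-Ox40, and every high-bead library had more Ox40 transcript than every low-bead library. Tnfsf4, its ligand, rose from 1.29 ± 0.291 to 2.68 ± 0.331 nRPKM. Tnfrsf8, the CD30 gene, rose from 19.5 ± 4.68 to 94.1 ± 11.6 nRPKM, and Tnfrsf9, the 4-1BB gene, from 48.6 ± 6.501 to 136 ± 30.2 nRPKM. Tnfrsf14, the HVEM gene, fell from 38.6 ± 3.07 to 19.5 ± 1.04 nRPKM. Of 12 ligands of the family 2 were called higher and 6 lower. Cd40lg, by which helper cells activate B cells, stood at 33.96, 32.95 and 35.8 nRPKM at low beads and at 10.7, 11.3 and 11.4 nRPKM at high beads (-1.54 ± 0.073).

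Inhibitory receptors and ligands had 4 of 10 called higher and 5 lower. Lag3, a receptor for MHC class II, stood at 16.8, 11.2 and 10.7 nRPKM at low beads and at 130.0, 103 and 119.5 nRPKM at high beads (3.11 ± 0.24). Tigit rose by 1.30 ± 0.20 and Ctla4 from 114 ± 12.5 to 166 ± 17.3 nRPKM, and the call for Ctla4 ended after quantile normalization. Pdcd1, the PD-1 gene, fell from 18.02 ± 3.002 to 10.9 ± 2.56 nRPKM, and Cd96 fell from 48.9 ± 3.01 to 16.9 ± 1.58 nRPKM. In the IL-2 receptor and STAT5 group 9 of 15 were called higher and 3 lower. Il2ra, the receptor chain for high-affinity IL-2 binding, stood at 232, 258 and 229 nRPKM at low beads and at 697, 598 and 655 nRPKM at high beads (1.44 ± 0.075). Il2rb rose by 0.91 ± 0.081, the kinase gene Jak3 by 0.97 ± 0.069 and the feedback inhibitor gene Cish by 0.64 ± 0.092. Other cytokine receptors leaned the other way, with 6 of 27 called higher and 14 lower, among them both chains of the interferon alpha receptor, Ifnar1 (-0.66 ± 0.042) and Ifnar2 (-0.66 ± 0.064).

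Genes of naive and quiescent T cells fell. Of 24 tested, 20 were called lower, 3 of them by over 2-fold, and 1 higher, with a median of -0.81. Klf2, which keeps T cells quiescent and recirculating, stood at 215, 253 and 209 nRPKM at low beads and at 63.2, 91.3 and 81.7 nRPKM at high beads (-1.52 ± 0.13). S1pr1, the receptor for exit from lymphoid organs and a KLF2 target, stood at 128, 147 and 139 nRPKM at low beads and at 32.3, 49.1 and 43.8 nRPKM at high beads (-1.72 ± 0.13). Klf3, a repressor of the same family, fell from 50.2 ± 3.05 to 11.1 ± 1.68 nRPKM. Tcf7, the TCF1 gene, fell from 283 ± 16.5 to 120.2 ± 14.3 nRPKM and Il7r, the receptor for the survival cytokine IL-7, from 75.6 ± 4.73 to 40.1 ± 3.97 nRPKM. Ccr7, a lymph node homing receptor, did not pass the test. Ccr7 stood at 179, 246 and 198 nRPKM at low beads and at 183, 222 and 193 nRPKM at high beads (-0.05 ± 0.12, adjusted p = 0.71). The groups overlapped, and low-bead replicate 2 was the highest library. The member called higher was Satb1, a chromatin organizer (1.37 ± 0.15). Among adhesion genes 4 of 14 were called higher and 7 lower, with Itga6 falling from 49.4 ± 2.31 to 16.7 ± 1.72 nRPKM and Itga4 from 62.2 ± 15.7 to 18.5 ± 0.817 nRPKM. Chemokine and egress receptors had 3 of 16 called higher and 8 lower.

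Interferon-stimulated genes fell, with 20 of 34 called lower, 3 of them by over 2-fold, 3 called higher and a median of -0.53. Ifit3, of the family that binds viral RNA, stood at 4.53, 3.71 and 3 nRPKM at low beads and at 0.303, 0.442 and 0.283 nRPKM at high beads (-1.81 ± 0.12). Rtp4, an interferon-induced chaperone, fell from 6.81 ± 0.866 to 0.924 ± 0.204 nRPKM. Members called higher were Gbp2 (1.05 ± 0.14), Isg15 (0.71 ± 0.15) and Dhx58 (0.31 ± 0.12, adjusted p = 0.031). The adjusted p of Dhx58 was 0.054, 0.0986, 0.144 and 0.0692 without low-bead replicate 2 or 3 or high-bead replicate 2 or 3. Related genes were among the 15 largest decreases, chosen in the same way. Pydc3, Ifi203 and Mndal are interferon-inducible genes of the PYHIN family, which senses DNA or binds inflammasome proteins, and lie on chromosome 1 (GRCm38.p6, Pydc3 at chromosome 1, 173673628 to 173698393). Pydc3 stood at 10.1, 9.91 and 10.6 nRPKM at low beads and at 0.463, 0.621 and 0.567 nRPKM at high beads (-2.86 ± 0.079, adjusted p = 2.9e-13). Ifi203 stood at 21.4, 18.01 and 23.9 nRPKM at low beads and at 1.35, 2.94 and 2.49 nRPKM at high beads and Mndal fell from 21.8 ± 3.59 to 3.03 ± 0.919 nRPKM. These genes share near-identical stretches, so the split of reads between them is uncertain. Of 6 Schlafen genes, a family with a known role in T cell quiescence, 4 were called lower and 1 higher, and of 8 Gimap GTPases 6 were called lower and 2 higher.

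The other large decreases came from varied genes. The 2 largest of all were passed over in that choice. Gm14446, passed over for the form of its symbol, fell from 19.7 ± 1.56 to 0.637 ± 0.0625 nRPKM (-3.66 ± 0.14). What it encodes was not examined, so it may belong to a family named above. Snord35b, listed as a small nucleolar RNA, fell from 217 ± 16.1 to 28.1 ± 9.11 nRPKM (-2.96 ± 0.35). The kit takes poly(A) RNA and does not mark strand, and whether its reads came from a longer overlapping transcript was not examined. Ms4a4b, a membrane protein of naive T cells, stood at 508, 607 and 582 nRPKM at low beads and at 56.6, 113 and 113 nRPKM at high beads (-2.64 ± 0.32). Its neighbour Ms4a4c, also near-identical in parts, fell from 18.1 ± 2.35 to 2.49 ± 0.9099 nRPKM. Scg5, a chaperone of a prohormone convertase, fell from 42.9 ± 3.71 to 5.94 ± 1.72 nRPKM. Cd7, a surface protein of the immunoglobulin superfamily, fell from 34.99 ± 7.73 to 6.08 ± 1.73 nRPKM. Lpar6, a receptor for lysophosphatidic acid, fell from 21.95 ± 1.87 to 3.82 ± 0.649 nRPKM. It lies within the span of Rb1, which went from 24.8 ± 0.704 to 21.4 ± 0.926 nRPKM. Peg13, an imprinted RNA within the span of Trappc9, fell from 14.4 ± 0.911 to 2.105 ± 0.206 nRPKM. Cpne7, Sntb1, Xkrx, Drc1, Mpo and Il18r1 complete the 15, and the first 3 of these changed by -2.53, -2.39 and -2.31.

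Genes of the cell cycle were mostly higher. All 34 DNA replication genes and all 30 mitosis genes tested were called higher at high beads, with medians of 0.83 and 0.67 and none past 2-fold. Mki67, the Ki-67 antigen, stood at 84.3, 74.7 and 97.2 nRPKM at low beads and at 102, 124 and 111 nRPKM at high beads (0.39 ± 0.10), and this change did not pass the test with libraries scaled to equal sums or after quantile normalization. Of 23 G1 cyclins, kinases and inhibitors 16 were called higher and 2 lower. Cdkn1a, the p53 target p21 that stops the cycle, stood at 11.97, 10.4 and 8.69 nRPKM at low beads and at 66.2, 51.1 and 52.9 nRPKM at high beads (2.35 ± 0.12). Cdkn1b, the inhibitor p27 of resting T cells, fell from 67.4 ± 0.492 to 35.7 ± 3.93 nRPKM. Of 18 p53 targets 13 were called higher and 4 lower. Bax, which promotes cell death, rose by 0.90 ± 0.081, and Bcl2l1, the survival gene for BCL-XL, by 0.87 ± 0.098.

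The change from low to high beads was also set against the change from no to low beads in the same control Ig cultures. Both share the low-bead libraries, so their difference was tested as 1 contrast. Over all tested genes, 2506 had a second step called higher than the first (19.2%) and 2457 a second step called lower (18.8%). With the library highest in B cell markers left out of every group at once, a fit on fewer libraries, 2615 genes in all were called in place of 4963. Cell cycle genes moved mainly at the first step. Median changes from no to low beads were 1.51 for DNA replication and 3.30 for mitosis, and 28 of 34 and 30 of 30 members had a second step called lower. Top2a, a topoisomerase of dividing cells, stood at 6.74, 7.75 and 7.11 nRPKM without beads, at 149, 193 and 177 nRPKM at low beads and at 253, 279 and 280.3 nRPKM at high beads. Its second step minus its first was -3.75 (SE 0.17, adjusted p = 7.8e-10).

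Glycolysis and HIF targets showed the opposite order. Median changes were 0.81 at the first and 1.81 at the second step for glycolysis, and 17 of 22 genes had a second step called higher and none lower. For HIF targets the medians were 0.43 and 1.52, with 18 of 22 called higher and 1 lower. The most positive differences between steps were those of Tgm2 (4.71), Il1rn (3.67), Ndrg1 (3.42), Gzmb (3.37) and Fosl2 (3.31). Il1rn, the IL-1 receptor antagonist, stood at 4.19, 5.14 and 3.91 nRPKM without beads, at 1.09, 1.24 and 0.511 nRPKM at low beads and at 13.6, 5.04 and 6.49 nRPKM at high beads. It thus fell at the first step and rose at the second. The most negative differences were those of Drc1 (-4.77), Ms4a4c (-4.23), Igfbp4 (-3.88), Top2a and Mki67 (-3.61).

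Drc1 had the opposite shape to Il1rn. This subunit of the dynein regulatory complex of cilia stood at 1.195, 1.07 and 1.65 nRPKM without beads, at 6.01, 9.98 and 9.66 nRPKM at low beads and at 0.418, 0.368 and 0.407 nRPKM at high beads. All 3 low-bead libraries were above the 6 others. Igfbp4, which binds insulin-like growth factors, stood at 6.57, 7.89 and 7.899 nRPKM without beads and rose at the first step only, to 107, 184 and 125 nRPKM, with 126, 179.8 and 142 nRPKM at high beads (0.13, adjusted p = 0.59). Interferon-stimulated genes as a group had the shape of Drc1. Their medians were 0.46 at the first and -0.53 at the second step, and 28 of 34 had a second step called lower and none called higher.

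**Figure D4:**
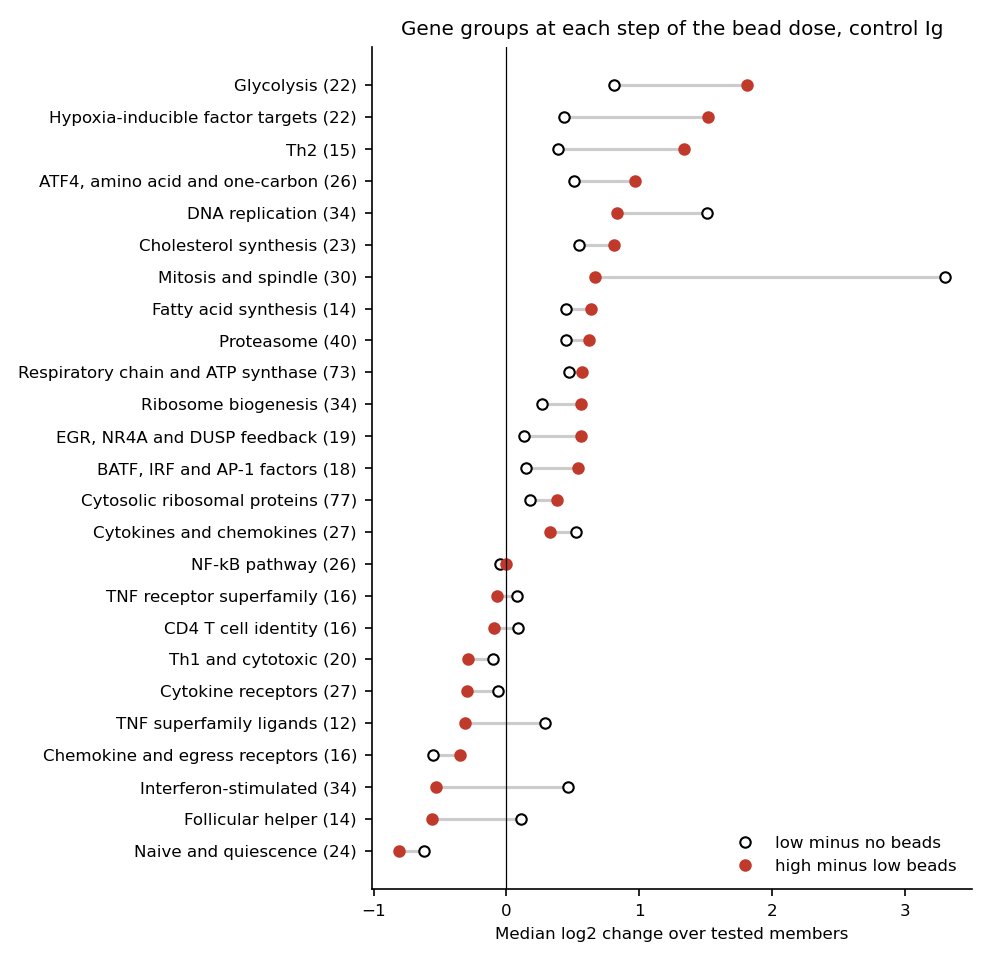
Median log2 change over tested members of each of 25 gene groups in control Ig (x) from no to low beads (open points) and from low to high beads (red points), which share the low-bead libraries. Numbers in brackets are members tested, and mitosis genes moved more at the first step (median 3.30), glycolysis more at the second (1.81), and interferon-stimulated genes up and then down.

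Transcripts used as markers of other cells were summed as well, and several of these sums differed between the doses. Which cells made these transcripts was not measured. Genes of CD4 T cell identity summed to 2481 to 2604 nRPKM at low and 2411 to 2519 nRPKM at high beads, with 5 of 16 called higher and 7 lower. CD8 markers summed to less than 7 nRPKM in every library. The 16 myeloid markers summed to 121 to 132 nRPKM at low and 44.3 to 54.01 nRPKM at high beads, and 8 of 14 tested were called lower and none higher. Lyz2, the lysozyme of macrophages and neutrophils, stood at 12.8, 18.02 and 12.1 nRPKM at low beads and at 1.96, 6.86 and 3.095 nRPKM at high beads. Csf1r, the growth factor receptor of macrophages, was under 1 nRPKM in all 6 libraries. MHC class II genes, of antigen-presenting cells, had 5 of 10 called lower and none higher. The part of these cells in the lower interferon-stimulated, MHC and Lyz2 values was not tested.

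Smaller sets of markers went the same way with few exceptions. Neutrophil markers, which include Mpo, summed to 10.7 to 18.6 nRPKM at low and 2.4 to 6.99 nRPKM at high beads. Of 6 tested, 4 were called lower and 1 higher. Ly6g, a marker in this sum that did not reach the level needed for a test, went the other way. It stood at 0.066, 0.085 and 0.03 nRPKM at low beads and at 0.845, 0.626 and 0.301 nRPKM at high beads. Mpo was in the list of the 15 largest decreases and stood at 4.94, 6.39 and 7.196 nRPKM at low beads and at 0.091, 0.55 and 0.283 nRPKM at high beads. Plasma cell markers summed to 40.05 to 50.9 and 9.55 to 14.5 nRPKM, and platelet markers to 78.2 to 94 and 43.3 to 52.4 nRPKM. B cell markers summed to 8.01 to 57.2 nRPKM at low and 5.2 to 14.03 nRPKM at high beads, the top value of each group being replicate 3, and 1 of 9 was called lower. NK cell markers summed to 26.9 to 37.7 and 54.9 to 87.9 nRPKM. Gzma, which activated T cells also express, made up most of the higher sum and rose from 15.2 ± 2.37 to 65.7 ± 15.3 nRPKM, while the NK receptor gene Klrd1 fell from 7.21 ± 1.197 to 2.94 ± 0.752 nRPKM. Dendritic cell markers summed to at most 1.33 nRPKM, and of these Cd209a and Cd300c were at 0 in all 6 libraries. No erythroid marker reached the level needed for a test.

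Transcripts of lung epithelium, a tissue that was not sampled, were present in some libraries. Scgb1a1, the secretoglobin of club cells, stood at 0, 16.4 and 18.2 nRPKM at low beads and at 20.9, 84.3 and 33.3 nRPKM at high beads and was at 0 in the 3 libraries without beads. Its change of 2.53 ± 0.87 (adjusted p = 0.016) was 1.13 without low-bead replicate 1 (adjusted p = 0.0913) and 1.98 without high-bead replicate 2 (adjusted p = 0.0756). The 12 markers of this tissue summed to 6.02 to 32.1 nRPKM at low and 35.4 to 128 nRPKM at high beads, and 4 of 7 tested were called higher and 1 lower, none by over 2-fold. Under anti-Ox40 the order was the opposite, with 44.5 to 231 nRPKM at low and 32.7 to 57.6 nRPKM at high beads, and none of the 7 was called higher and 1 lower. Their part in other results was not tested.

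Nuclear long RNAs were lower at high beads, with 4 of 5 tested called lower. Malat1 stood at 453, 173 and 435 nRPKM at low beads and at 86.4, 109 and 62.9 nRPKM at high beads (-1.94 ± 0.30), without overlap but with low-bead replicate 2 nearer to the high-bead libraries. Long RNAs that host snoRNAs went the other way, with 8 of 9 called higher and a median of 0.50. The mean log2 level of the 5 nuclear RNAs was 5.88 to 6.65 in the low-bead and 5.02 to 5.27 in the high-bead libraries, so it separates the groups as the dose does. With this score in the model, 1738 genes were called higher and 1714 lower, 54 and 17 of them by over 2-fold. Glycolysis then had 21 of 22 called higher, HIF targets 17 of 22 and Th2 genes 7 of 15, and naive and quiescence genes 17 of 24 called lower. Mitosis genes had 6 of 30 called higher and cytosolic ribosomal proteins 3 of 77. In this model 1738 of all 13075 tested genes were called higher. The mitosis share was above and the ribosomal protein share below that of all tested genes. Among genes named here, calls that ended with the score in the model were those of Bcl2l1, Btla, Cd28, Cd69, Cish, Csnk1d, Cxcr5, Dhx58, Enpp2, Ern1, Foxp3, Gbp2, Ifng, Ikzf2, Il13, Il1rn, Il5, Il7r, Il9, Isg15, Klrd1, Lyz2, Myc, Nfkb2, Nsg2, Odc1, Pdcd1, Rb1, S100a4, Satb1, Scd1, Sla, Timp1, Tnfsf4 and Top2a. Malat1, itself part of the score, and Scgb1a1 changed sign. The share of nuclear RNA and the dose cannot be told apart in these libraries.

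The same bead step under anti-Ox40 rests on 6 other libraries. There, 5264 genes were called higher (40.3%) and 4084 lower (31.2%). Genes called higher in both numbered 4551, which is 87.0% of the control Ig list and 86.5% of the anti-Ox40 list. Genes called lower in both numbered 3532, or 83.1% and 86.5% of the lists. Opposite calls were made for 20 genes higher in control Ig and lower under anti-Ox40 and for 26 genes the other way round. Under anti-Ox40, 208 genes (1.59%) were called higher and 225 (1.72%) lower by over 2-fold. Among changes of over 2-fold, 165 of the 202 increases (81.7%) and 141 of the 162 decreases (87.0%) were called over 2-fold under anti-Ox40 as well, or 79.3% and 62.7% of its lists. Across the 13075 genes, which are not independent replicates, the changes had a Pearson r of 0.926. Tgm2 stood at 11.02, 10.9 and 10.6 nRPKM at low and 298, 279 and 378 nRPKM at high beads under anti-Ox40.

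A difference in the step between antibodies was called for 414 genes (3.17%), of which 192 (1.47%) had a higher and 222 (1.70%) a lower step under anti-Ox40. None was called by over 2-fold, and 2638 genes had an unadjusted p under 0.05. Glycolysis and HIF target genes rose less under anti-Ox40 in several cases, with 10 of 22 and 8 of 22 called lower in this contrast and none and 1 higher. Slc16a3 stood at 27.7, 27.3 and 30.3 nRPKM at low and 141, 137 and 152 nRPKM at high beads under anti-Ox40. Its change there minus that in control Ig was -0.97 (SE 0.084, adjusted p = 3.3e-05), and the gap between antibodies was wider at low beads. Mgarp differed by -1.11 (adjusted p = 0.00033) and Tpi1 by -0.89 (adjusted p = 0.00062). Btla, an inhibitory receptor, stood at 11.4, 10.1 and 13.8 nRPKM at low and 8.69, 6.73 and 6.88 nRPKM at high beads in control Ig and at 10.9, 11.7 and 12.1 and 21.9, 19.1 and 16.1 nRPKM under anti-Ox40. It thus fell in control Ig and was higher at high beads under anti-Ox40, a difference of 1.26 (adjusted p = 0.0015).

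The number of such genes rests on single libraries. It was 102 to 1243 when each of the 12 libraries was left out in turn. In control Ig it was 219, 1243 and 149 without low-bead replicates 1, 2 and 3 and 653, 166 and 102 without high-bead replicates 1, 2 and 3. Under anti-Ox40 it was 182 and 137 without low-bead replicates 1 and 3 and 108 without high-bead replicate 1. With the library highest in B cell markers left out of each group, 3 genes were called. That setting drops a library from all 6 groups at once. The part of fewer libraries and that of B cell RNA in this lower count were not told apart.

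**Figure D5:**
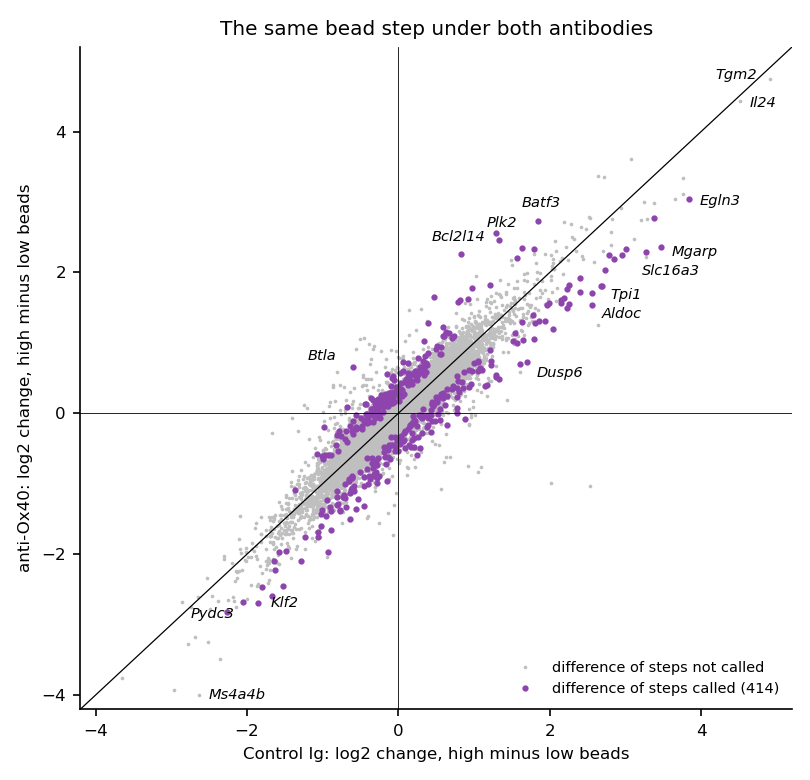
Change from low to high beads of each of the 13075 tested genes (log2 of nRPKM + 1) in control Ig (x) and under anti-Ox40 (y), from 6 libraries each. Purple points are the 414 genes whose change differed between antibodies at an adjusted p under 0.05, and most genes lie along the line of equal change (Pearson r of 0.926), with Slc16a3, Mgarp and Tpi1 below it and Btla above.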

How the data were processed

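RNA-seq libraries of cultured CD4 T cells were made with an unstranded poly(A) kit (TruSeq RNA v2) from 100 to 500 ng of RNA, per the labels' protocols. The submitters' processing notes name GSNAP and the build GRCm38. The deposited values are nRPKM, the authors' RPKM with a further normalization between libraries. For the annotation, the counting rule and the normalization factor, details were not given in the sources used here. No counts were used, so no count model was fitted. Low values of each library were whole multiples of 1 read (100% of those examined, within 0.1 read), which gave 26.4 to 46.0 reads per nRPKM and kb over the 18 libraries. No pair of libraries was identical.

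Genes with at least 1 nRPKM in at least 3 of 18 libraries were tested on log2(nRPKM + 1) with limma 3.58.1 (R 4.3.3, variance trend, 2-sided, Benjamini-Hochberg), with all 18 libraries in 6 group means, which share 1 estimate of the spread (12 residual degrees of freedom). The step difference and the difference between antibodies were contrasts of that fit. The code was tested on simulated data with known changes.

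The comparison, its 61 gene lists and its alternatives were chosen with earlier results of these data known. Genes were named by a rule: the 15 largest changes each way with a higher mean of at least 5 nRPKM (over 2-fold, no overlap of libraries, no predicted genes, microRNAs, snoRNAs, pseudogenes or date symbols), up to 4 called list members with the smallest adjusted p, a panel of 57 genes (some of them not reported here), and the 5 largest step and antibody differences each way. Named beyond it, after their values were seen, were Atf4, Car9, Cish, Csnk1d, Cxcr5, Dhx58, Dnajb9, Dnajc3, Eif4a2, Ern1, Fads2, Fos, Gapdh, Gbp2, Gm14446, Ifnar1, Ifnar2, Ikzf2, Il18rap, Il2rb, Isg15, Mtf1, Nfkb1, Nfkb2, Odc1, Pdk1, Pfkfb4, Pkm, Rb1, Satb1, Scd1, Sla, Slc30a1, Snord35b, Tigit, Trappc9 and Xcl1. Coordinates and promoters are from RefSeq (GRCm38.p6), which matched 12009 of the tested genes (91.8%). Alternatives were pseudocounts of 0.1 and 0.5, a filter at 5 nRPKM or none, other scalings, a fit to only the groups compared, a nuclear RNA score as covariate and leaving out each library. Of the entries, 27 had symbols in the form of dates and 6 had no symbol, and none of these is named.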

Additional observations from a re-analysis of the deposited data

Results flagged for a closer look

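The step from low to high beads differed between anti-Ox40 and control Ig for 414 genes in the test of the difference itself (limma, adjusted p under 0.05), and those named in the report are given here as the change under anti-Ox40 minus the change in control Ig, on the log2 scale. The count rests on single libraries, as its range of 102 to 1243 on leaving out 1 library shows. It is 3 with the library highest in B cell markers left out of every group at once, a fit on fewer libraries. The gene values below share these limits.

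Most named differences were negative in the metabolic genes. Among glycolysis genes the values were -0.97 for Slc16a3, -0.89 for Tpi1, -1.02 for Aldoc, -0.55 for Pkm and -0.47 for Slc2a1. Among HIF targets they were -0.79 for Egln3, -0.72 for Ndrg1, -0.67 for Ak4, -0.54 for Bnip3 and -0.48 for Fam162a. Mgarp differed by -1.11, Mthfd1l by -0.34, Anxa2 by -0.58 and Tg by -0.60. All of these rose in both settings, and rose less under anti-Ox40.

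Signalling and lineage genes went both ways. The phosphatase gene Dusp6 differed by -0.97, Tbx21 by -0.39, Jak3 by -0.37, Bcl6 by -0.46, Klf2 by -0.93, Cd96 by -0.48, Cd44 by -0.36 and Cd3e by -0.35. Higher values under anti-Ox40 were found for Batf3 (0.88), Il5 (0.90), Lif (0.55), Cd69 (0.52), Rel (0.50) and Eif4a2 (0.36). Il5 stood at 0.292, 0.778 and 1.11 nRPKM at low and 3.06, 3.05 and 3.25 nRPKM at high beads under anti-Ox40, so every high-bead library passed 1 nRPKM there.

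The largest called differences among genes with readable symbols were also examined. They were Bcl2l14 (1.43), Enpp2 (1.26), Btla (1.26), Timp1 (1.18) and Plk2 (1.14) on the positive side. Mgarp, Nsg2 (-1.04), Aldoc, Slc16a3 and Dusp6 were the 5 on the negative side. Enpp2, which makes lysophosphatidic acid, went from 0.526 ± 0.183 to 2.85 ± 1.34 nRPKM in control Ig and stood at 1.21, 1.08 and 0.971 nRPKM at low and 13.9, 8.84 and 11.4 nRPKM at high beads under anti-Ox40. Timp1, an inhibitor of metalloproteinases, went from 0.261 ± 0.153 to 0.755 ± 0.3 nRPKM in control Ig and stood at 0.403, 0.593 and 0.213 and 4.77, 2.74 and 2.904 nRPKM under anti-Ox40. The control Ig change of Timp1 did not pass without low-bead replicate 2 (adjusted p = 0.0796) or high-bead replicate 1 (adjusted p = 0.102).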

How the results depend on the processing

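No paired analysis was possible because the labels give no replicate numbers from which pairs could be read. The numbers used here are names in accession order, and a fit blocked on that order was not run. Replicate 3 had the most B cell RNA in all 6 groups. It also had the most Cd8a in each, at 0.259 to 0.433 nRPKM against at most 0.129 nRPKM in the other replicates. The p-values take no account of such a block, and its effect on the calls was not tested. Calls between high and low beads kept within 1.5 times of 9483 under every alternative but 1, from 7470 with a filter at 5 nRPKM to 10734 without a filter, and were 8857 to 9511 without 1 library. The exception was the nuclear RNA score as a covariate, with 3452 calls (1738 higher and 1714 lower), of which 54 higher and 17 lower were over 2-fold. This score separates the groups as the dose does. Changes of over 2-fold numbered 177 to 223 higher and 124 to 192 lower without 1 library, and with a pseudocount of 0.1 there were 297 higher and 334 lower. Without the library highest in B cell markers in each group, 91 were lower. This alternative was chosen after seeing the data and drops a library from every group at once, so its counts also rest on fewer libraries. Calls between the steps were 3606 to 5634 without 1 library, 2570 with the score and 2615 without the B cell libraries, against 4963. Calls between antibodies were 102 to 1243 without 1 library, 263 without a filter, 152 when the fit held only the groups compared, 675 with the score and 3 without the B cell libraries, against 414. The cause of these differences was not tested.

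Of 169 tested genes described in the text, 158 were called between high and low beads, and 119 of these kept the call and direction under every alternative except leaving out the B cell libraries, which is not counted here. With the nuclear score 37 lost the call or changed sign, without 1 library 5, and under the other alternatives 9. These 9 were Cd28, Csnk1d, Ctla4, Dhx58, Ifng, Il5, Mki67, Scgb1a1 and Sla. Some values changed sign. With libraries scaled to equal sums, Cd44 changed by -0.15, Csnk1d by -0.085, Igfbp4 by -0.07, Mtf1 by -0.15, Pdk1 by -0.036 and Pfkfb4 by -0.09. Of these, Csnk1d (adjusted p = 0.00812) and Mtf1 (adjusted p = 0.00452) were called lower there. Csnk1d was also called lower after quantile normalization (adjusted p = 0.00087). After quantile normalization the values were 0.058 for Car9, -0.077 for Cd44, -0.11 for Csnk1d, -0.17 for Igfbp4 and -0.039 for Pdk1, and with equal medians -0.004 for Mtf1. With the nuclear score they were 0.19 for Car9, -0.01 for Cd44, -0.58 for Igfbp4, 0.4 for Malat1 (a part of the score, -1.94 without it), -0.071 for Mtf1 and -0.08 for Scgb1a1 (2.53 without it). Without 1 library, Ccr7 ranged from -0.15 to 0.079, with 0.009 without high-bead replicate 1. Igfbp4 ranged from -0.036 to 0.352, Mtf1 from -0.006 to 0.036 and Cd44 from -0.007 to 0.088. Cd44 was -0.021 without the B cell libraries. Depth limits genes near 1 nRPKM, which rest on few reads, and no interval is given for single values.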

Other observations

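Some gene groups outside the accounts above were also measured. Among 18 tested S100, annexin and galectin genes 6 were called higher and 3 lower. Their median of 0.05 was -0.15 with libraries scaled to equal sums and -0.12 after quantile normalization. Anxa2, a calcium-dependent membrane binding protein, rose from 42.6 ± 4.02 to 191 ± 11.2 nRPKM, while S100a4, a calcium binding protein of memory T cells, fell from 32.8 ± 9.08 to 8.02 ± 0.865 nRPKM. Of 13 genes for DNA and histone H3K27 methylation 7 were called higher and 4 lower. Uhrf1, which guides the maintenance methylase to replicating DNA, rose by 0.96 ± 0.086 and Ezh2, the H3K27 methylase of dividing cells, by 0.89 ± 0.077, while its paralog gene Ezh1 changed by -0.88 ± 0.036. Survival genes of the BCL2 family had 4 of 5 called higher and 1 lower, and pro-apoptotic genes 4 of 8 called higher and none lower.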
